A study of Saccharomyces cerevisiae with 12 samples.

Results

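The genes described here encode the yeast proteasome. They were taken by name from the deposited table of mRNA levels: every row named PRE, PUP, RPN or RPT with a number, together with SCL1 and SEM1, and the regulator RPN4 apart. The rule found 33 proteasome genes and RPN4 among 6347 features. Subunits with no row under these names, RPN11 of the lid among them, were not analysed here. By role the 33 genes are 7 of the alpha ring and 7 of the beta ring of the core, 6 ATPases, 4 scaffolds and ubiquitin receptors, 8 lid subunits and 1 assembly chaperone.

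The mRNA came from the budding yeast *Saccharomyces cerevisiae*, laboratory strain D452-2, harvested in mid-exponential growth. Both groups carried a pRS316 plasmid that holds cdt-1, a cellodextrin transporter of *Neurospora crassa* tagged with GFP. In NC the transporter was encoded by its endogenous codons, and in OPT by codons optimized for yeast, so neither strain lacks the foreign gene. Each strain gave 3 mRNA libraries, described by the submitters as biological replicates, whereas the 6 libraries of ribosome footprints were not analysed here. All values are therefore mRNA levels.

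The proteasome is the protease that degrades proteins tagged with ubiquitin. A barrel-shaped core of stacked alpha and beta rings holds the active sites inside, and a regulatory particle caps it. In that cap, a ring of ATPases unfolds the substrate and threads it into the core, ubiquitin receptors bind the tag, and the lid removes it. The subunits are needed in fixed proportions. In yeast their genes share a transcription factor, Rpn4, which is itself a short-lived proteasome substrate, so that loss of proteasome activity raises its level. Membrane proteins that fail to fold in the ER are among the substrates of the proteasome.

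Levels were deposited as normalized RPKM, read numbers scaled to gene length and library size, so that genes can be compared with each other. The libraries held an estimated 23300000 to 43000000 reads in annotated genes, and 1410 to 17830 reads lay behind each proteasome value. NC replicate 3 stood apart, and leaving it out raised the features called different between the strains from 1145 to 1956. The transgene rows followed the labels, with the endogenous version at 506 to 567 RPKM in NC and listed at 0 in OPT, and the optimized version at 420 to 557 RPKM in OPT and listed at 0 in NC. In bulk cultures such as these, fewer cells that make a transcript and less of it per cell cannot be told apart.

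The proteasome genes were expressed well above the typical yeast gene and at levels close to each other. The mean level over the 6 libraries had a median of 227 RPKM among the 33 members, against 48.6 RPKM among the 5982 features tested. Among the 14 core subunits the levels spanned a factor of 1.86, from 188 RPKM for PRE4 to 351 RPKM for PUP2. The 18 regulatory particle subunits spanned a factor of 4.75, from 98.0 RPKM for RPN1 to 466 RPKM for SEM1. The standard deviation of the log2 level was 0.28 in the core, 0.54 in the regulatory particle and 1.85 across all tested features. RPN14, a chaperone that helps to assemble the base and leaves the finished particle, lay below every subunit at 45.9 RPKM.

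At the top of the order stood SEM1, a very small lid protein that is also part of other complexes, with 491, 513 and 518 RPKM in the NC libraries and 462, 405 and 404 RPKM in the OPT libraries. Each of these 6 values exceeded the highest value of any other member, 379 RPKM for PUP2. The next places were taken by PUP2 (351 RPKM), SCL1 (344 RPKM), PRE6 (338 RPKM), PRE7 (328 RPKM) and PRE9 (324 RPKM), all of the core, and their ranges over the libraries overlapped. At the other end came the long scaffold subunits RPN1 (98.0 RPKM) and RPN2 (109 RPKM), and then RPN9 (123 RPKM) of the lid. The ranges of RPN1, RPN2 and RPN9 did not overlap, but by less than 1 RPKM in each case. The order was nearly the same in both strains, with a Spearman correlation across the 33 genes of 0.979 between their mean levels. Across all tested features that correlation was 0.978, and the genes share the same libraries.

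**Figure D1:**
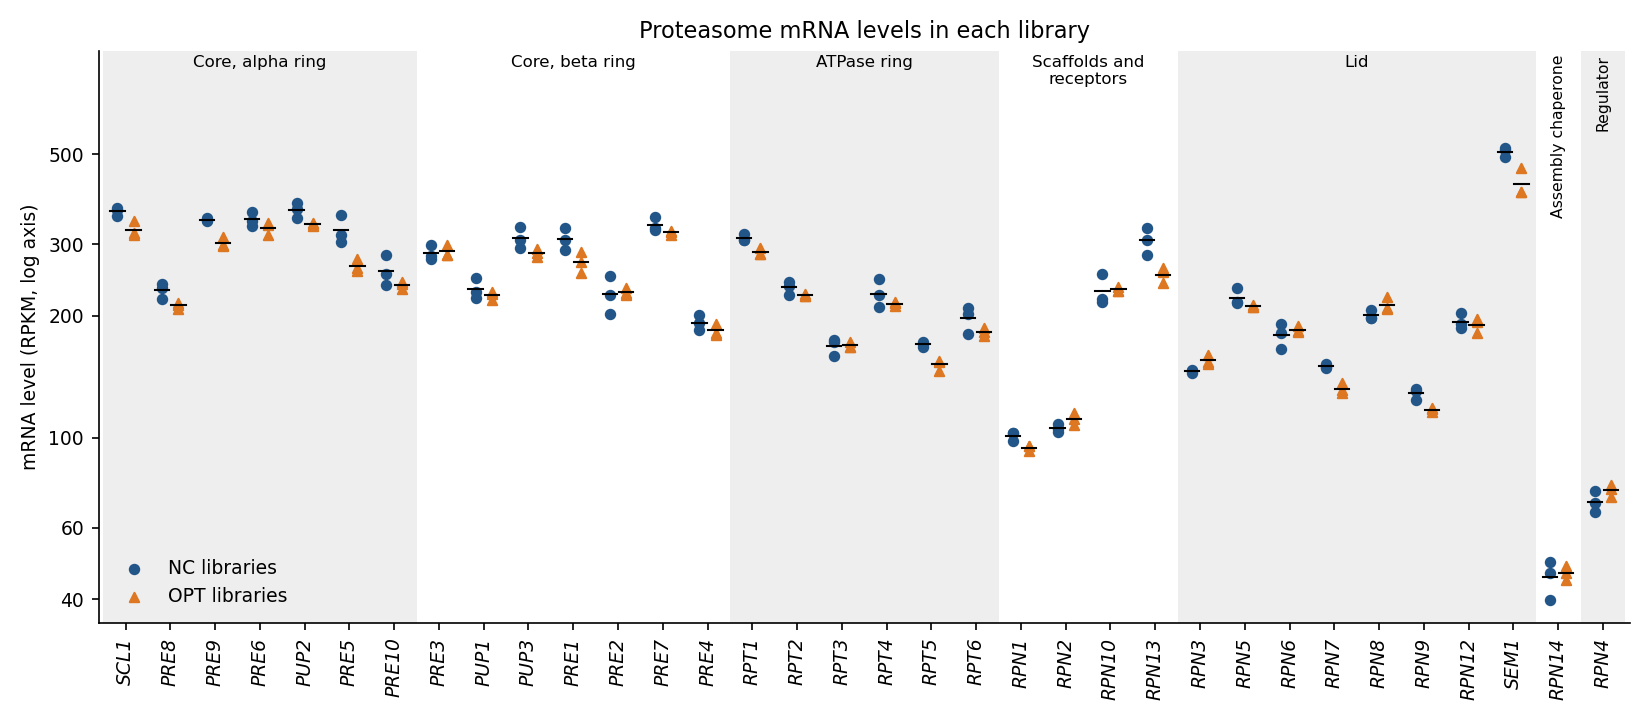
Level of each proteasome gene and of RPN4 in RPKM on a log axis, by role and subunit number, with NC libraries as circles, OPT libraries as triangles and short lines at the means of 3. SEM1 lies at the top with 404 to 518 RPKM, RPN14 lies below all subunits, and the core genes lie within a narrow band.

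Level and gene length went in opposite directions among the subunits. SEM1 has the shortest annotated gene, at 270 bases, and RPN1 and RPN2 have the longest, at 2982 and 2838 bases. The ubiquitin receptor gene RPN13 is 471 bases long and stood at 280 RPKM. Over the 32 subunits the Spearman correlation between log2 level and log2 length was -0.712 (Pearson -0.815). Among all 5823 tested features with an annotated length it was -0.358 (Pearson -0.253). It was nearer to 0 over the core as a whole, at -0.323 over 14 genes that all measure between 597 and 867 bases, and, by rank, within the regulatory particle, at -0.459 over 18 (Pearson -0.815). Within the core it was -0.821 over the 7 beta genes (Pearson -0.639) and 0.25 over the 7 alpha genes (Pearson -0.201). For the 6 ATPases, which are similar in length, it was 0.754 (Pearson 0.707). These values describe genes measured in the same libraries. RPKM are themselves scaled to gene length, so level and length are not independent measures. How much of the relation comes from that scaling was not tested.

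**Figure D2:**
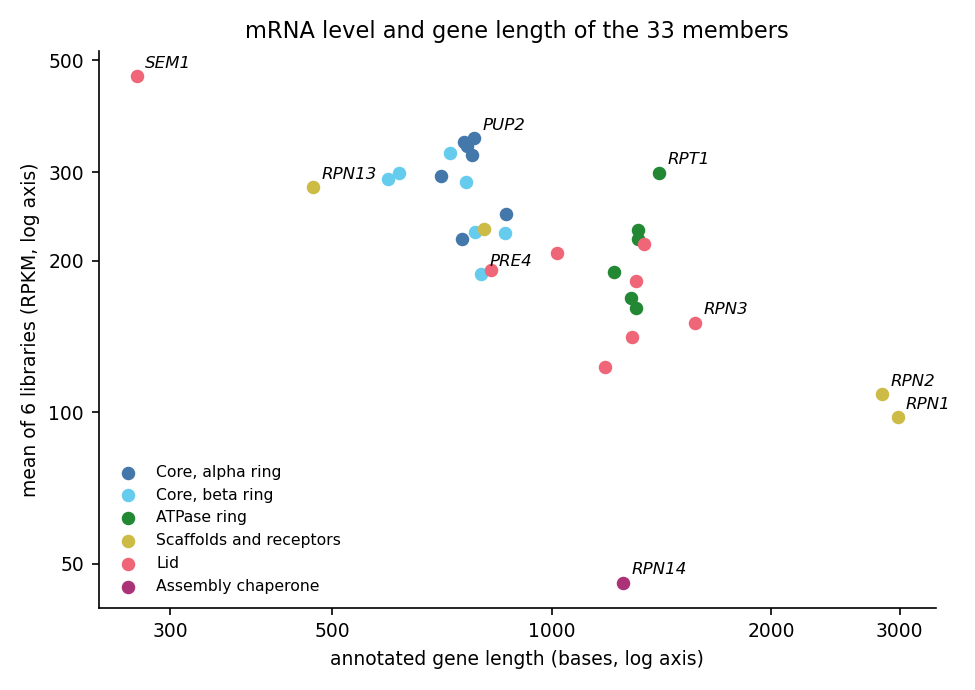
Mean level over the 6 libraries in RPKM against the annotated length of the gene in bases, both on log axes, 1 point per member, coloured by role. The shortest gene, SEM1, has the highest level, and the longest, RPN1 and RPN2, have the lowest of the 32 subunits. RPKM are themselves scaled to gene length.

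Between the strains, which differ in the codons of the transporter gene, proteasome transcripts differed little. Of the 33 members only PRE5, an alpha ring subunit, was called lower in OPT, and none was called higher, in a limma test on log2(RPKM + 1) with a Benjamini-Hochberg adjusted p under 0.05. Across the 5982 features tested, 13.8% were called lower and 5.38% higher (19.1% in either direction), so the members' count lay below the background. Over the 14 alternative settings 0 to 4 members were called lower and none higher. Without adjustment, 7 of the 33 had a p under 0.05, against 34.7% of all features.

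The log2 fold changes, OPT minus NC, ran from -0.29 for PRE5 to 0.09 for RPN3, with a median of -0.08, and all 33 were smaller than 0.3 in size. Of all tested features, 74.2% were that small, and their median was -0.06. The middle 50% of the members spanned 0.14 on the log2 scale, against 0.30 for all features. Each 95% interval lay within -0.48 to 0.25, and therefore within 0.5 of 0 for all 33 members, which held for 64.7% of all features. These intervals each hold for a single gene, at the scaling as deposited, and give no joint bound over the 33 members. No difference was shown to be 0. The median standard error was 0.067 among the members and 0.089 among all features. The members were also more abundant than the typical feature, and features of a like level were not compared apart.

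Most of the small differences pointed the same way. The log2 fold change was below 0 in 24 of 33 members, while 61.7% of all features were below 0. The libraries of the strains did not overlap in 16 members that were lower in OPT and in 2 that were higher, RPN3 and RPN8. Over all features, 27.6% were lower without overlap and 13.1% were higher without overlap, 40.7% together. With other scalings of the libraries the median of the members moved towards 0, while most members stayed below 0. Setting library medians equal moves every gene up by nearly the same amount, which took the median of all features from -0.06 to -0.0006 and that of the members from -0.08 to -0.019, with 22 members below 0. With quantile normalization the medians were -0.022 for all features and -0.0096 for the members, with 19 below 0.

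**Figure D3:**
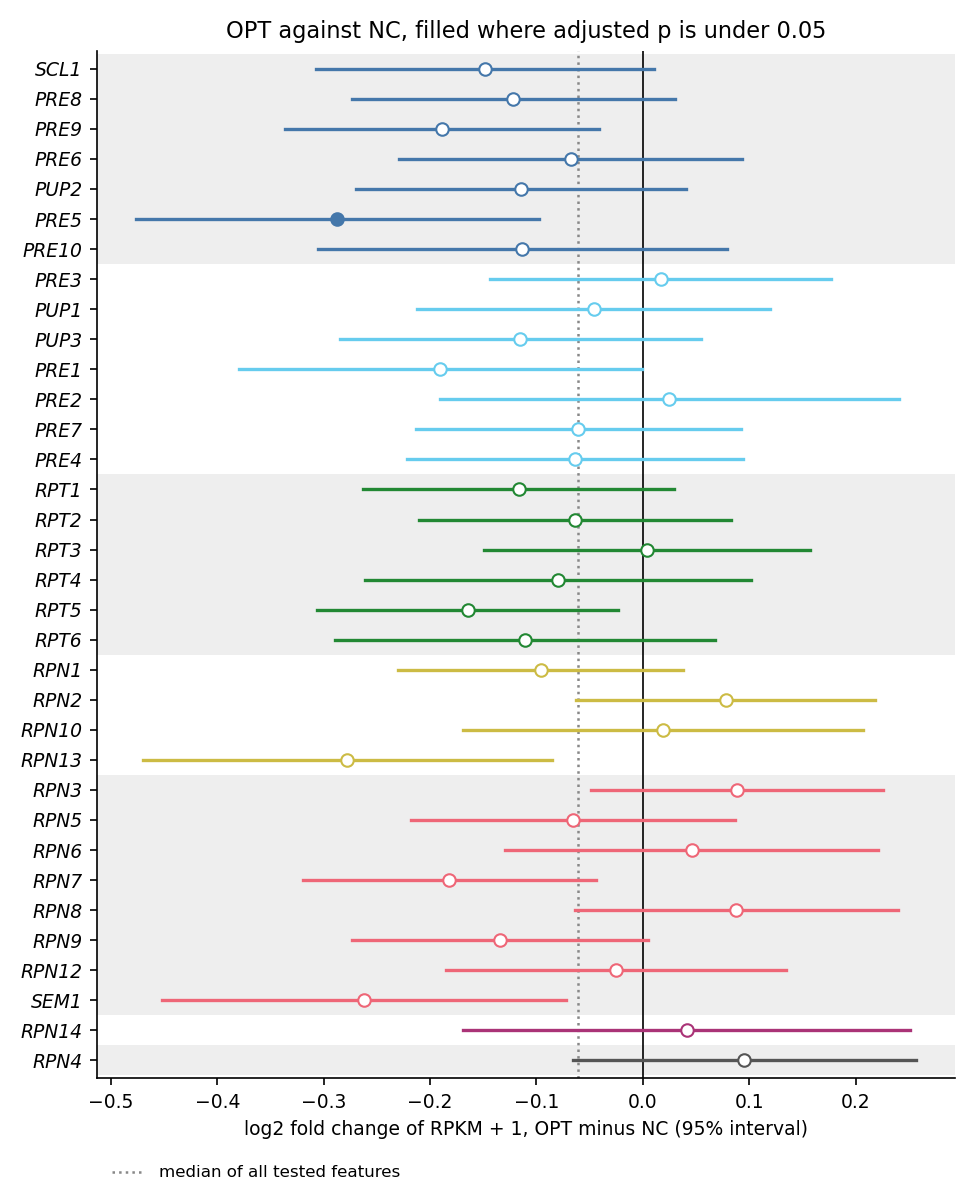
Log2 fold change of each member and RPN4 on the log2(RPKM + 1) scale, OPT minus NC, with its 95% limma interval, coloured by role, and a dotted line at the median of all tested features (-0.06). PRE5 carries the only filled point (adjusted p under 0.05), and every member's interval lies between -0.48 and 0.25.

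The alpha ring forms the outer gate of the core through which substrates enter. All 7 of its genes lay below 0, with a median log2 fold change of -0.12, where 61.7% of all features were below 0 with a median of -0.06. All 7 stayed below 0 under each of the 14 alternative settings, which reuse the same libraries. PRE6 came nearest to 0 there, at -0.0062. PRE5 encodes alpha 6 (chromosome XIII, 901709 to 902413, build R64). It stood at 304, 317 and 353 RPKM in NC and at 276, 258 and 263 RPKM in OPT, so that the lowest NC library lay above the highest OPT library. From 325 ± 25.7 RPKM in NC it fell to 265 ± 9.22 RPKM in OPT (SD, n = 3), or by 18.2% (log2 fold change -0.29, standard error (SE) 0.08, adjusted p = 0.0484 in limma). The call ended with quantile normalization (adjusted p = 0.0795), with equal library medians (0.138), and without NC replicate 2 (0.0884), NC replicate 3 (0.0512) or OPT replicate 1, 2 or 3 (0.102, 0.175 and 0.148). PRE5 was highest in NC replicate 3, a library in which the members as a group were also high.

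PRE9 encodes alpha 3, the only core subunit that yeast can live without. It stood at 343, 344 and 348 RPKM in NC and 313, 297 and 298 RPKM in OPT. The strains did not overlap, and the log2 fold change of -0.19 (standard error 0.06) had an adjusted p of 0.0772 in limma, short of the threshold, though it was called without a filter on low values (0.0244). SCL1, for alpha 1, stood at 362 ± 8.92 RPKM in NC and 326 ± 13.7 RPKM in OPT (adjusted p = 0.166, log2 fold change -0.15). PUP2, PRE8, PRE10 and PRE6, for alpha 5, 2, 7 and 4, had log2 fold changes between -0.12 and -0.07 and adjusted p-values between 0.227 and 0.522. Of these 4, PUP2 and PRE8 showed no overlap between strains.

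In the beta ring, PRE3, PUP1 and PRE2 encode the subunits that cut substrates, with caspase-like, trypsin-like and chymotrypsin-like activity. Their levels overlapped between strains. PRE2 (beta 5) stood at 202, 225 and 251 RPKM in NC and at 225, 227 and 234 RPKM in OPT, so the OPT libraries lay inside the range of NC. PRE3 (beta 1) stood at 285 ± 12.2 and 288 ± 9.54 RPKM, and PUP1 (beta 2) at 232 ± 13.9 and 225 ± 5.22 RPKM. The log2 fold changes of these catalytic genes were 0.03 for PRE2, 0.02 for PRE3 and -0.05 for PUP1, with 95% intervals from -0.19 to 0.24, from -0.14 to 0.18 and from -0.21 to 0.12.

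The other beta genes encode subunits without an active site. PRE1 (beta 4) stood at 291, 330 and 308 RPKM in NC and 287, 255 and 271 RPKM in OPT. Its strains did not overlap, by a margin of a few RPKM, and its log2 fold change of -0.19 did not pass (adjusted p = 0.142). PUP3, PRE7 and PRE4, for beta 3, 6 and 7, lay at -0.12, -0.06 and -0.06, with adjusted p-values from 0.3 to 0.547. PUP3 and PRE7 showed no overlap between strains and PRE4 did.

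The ATPase genes RPT1 to RPT6 encode the ring that unfolds substrates. RPT1 was the most abundant of them, at 308, 319 and 307 RPKM in NC and 283, 284 and 294 RPKM in OPT, and RPT5 the least, at 167, 171 and 173 RPKM in NC and 146, 154 and 155 RPKM in OPT. Those were also the only ATPase genes whose strains did not overlap. Their log2 fold changes were -0.12 and -0.16, and neither passed (adjusted p = 0.227 and 0.0996), though RPT5 was called without a filter on low values (0.0366). RPT2, RPT4 and RPT6 lay at -0.06, -0.08 and -0.11. RPT3 stood at 169 ± 8.19 RPKM in NC and 169 ± 2.94 RPKM in OPT, a log2 fold change of 0.0041 with an interval from -0.15 to 0.16. All 6 members of this ring occur once in each cap, yet their mean levels differed by a factor of 1.86.

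The scaffolds RPN1 and RPN2 and the ubiquitin receptors RPN10 and RPN13 did not share a direction. RPN13 (chromosome XII, 965090 to 965560, build R64), which the deposited annotation assigns to the lid, had 283, 308 and 330 RPKM in NC and 262, 240 and 256 RPKM in OPT. Each OPT library lay below each NC library. Its log2 fold change, -0.28 (SE 0.08), was just short of the threshold (adjusted p = 0.0554), and it was called without NC replicate 1 (0.0349) and with arrayWeights (0.0367). The other receptor, RPN10, stood at 217, 220 and 253 RPKM in NC and 236, 231 and 231 RPKM in OPT, with all OPT libraries inside the range of NC and a log2 fold change of 0.02. RPN1 stood at 101 ± 2.60 and 94.7 ± 1.59 RPKM and RPN2 at 106 ± 2.56 and 112 ± 3.64 RPKM (log2 fold changes -0.10 and 0.08, adjusted p = 0.276 and 0.394).

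The lid held both the most negative and the most positive values of the regulatory particle apart from RPN13. SEM1 (chromosome IV, 1202128 to 1202397) did not overlap between strains, but its log2 fold change, -0.26 (SE 0.08), did not pass (adjusted p = 0.0621). RPN7 (chromosome XVI, 742454 to 743743) stood at 149, 152 and 150 RPKM in NC and 129, 131 and 136 RPKM in OPT. The strains did not overlap, and its log2 fold change of -0.18 had an adjusted p of 0.0696, short of the threshold. RPN7 was called without a filter on low values (0.0249) and with arrayWeights (0.0482). RPN9 lay at -0.13 and RPN5, a subunit shared with the COP9 signalosome, at -0.07, both without overlap and with adjusted p = 0.156 and 0.508.

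RPN3 and RPN8 were higher in every OPT library than in any NC library. RPN3 stood at 145, 146 and 147 RPKM in NC and 154, 160 and 152 RPKM in OPT. RPN8, a structural subunit of the lid, stood at 197, 207 and 197 RPKM in NC and 223, 209 and 207 RPKM in OPT. Each had a log2 fold change of 0.09 and neither passed (adjusted p = 0.322 and 0.372). The sign of RPN2, RPN3 and RPN8 was positive under each of the 14 alternative settings. RPN6 and RPN12 overlapped between strains, at 0.05 and -0.03. The chaperone gene RPN14 stood at 39.96, 46.6 and 49.4 RPKM in NC and 46.5, 44.8 and 48.3 RPKM in OPT, a log2 fold change of 0.04 with the OPT libraries inside the range of NC.

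The members are spread over 13 chromosomes. In a pair of cases members lie close together with 1 annotated gene between them: PRE4 and RPN12 on chromosome VI, 2638 bases apart, and RPT4 and RPN8 on chromosome XV, 2206 bases apart. The neighbours lay on opposite sides of 0 in the latter case, with RPT4 at -0.08 and RPN8 at 0.09. Neither was called, and the difference between them was not tested. In the former case PRE4 and RPN12 lay at -0.06 and -0.03. No other annotated gene of the RefSeq table overlaps a member, so their reads are not shared with a neighbour in that annotation.

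RPN4 encodes the transcription factor of the proteasome genes (chromosome IV, 415113 to 416708). Its mRNA stood at 65.6, 74.1 and 69.0 RPKM in NC and 76.5, 71.6 and 74.99 RPKM in OPT. The groups overlapped, because NC replicate 2 lay above OPT replicate 2. The means were 69.6 ± 4.28 and 74.3 ± 2.49 RPKM (SD, n = 3), and the 95% interval of the log2 fold change, 0.10 (SE 0.07), ran from -0.07 to 0.26 (adjusted p = 0.361 in limma). It stayed positive and short of the threshold under all 14 alternatives, with values from 0.05 to 0.16 and adjusted p from 0.119 to 0.648. The regulator's mRNA thus lay on the other side of 0 from 24 of the 33 members, in differences that did not pass in either direction except for PRE5.

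Seen library by library, the NC libraries differed among themselves nearly as much as the strains did. The 33 members summed to 7619, 8086 and 8137 RPKM in NC replicates 1, 2 and 3 and to 7544, 7280 and 7407 RPKM in OPT replicates 1, 2 and 3. NC replicate 1 thus lay much nearer to OPT replicate 1 than to the other NC libraries. As a share of all RPKM the members took 0.762, 0.809 and 0.814% in NC and 0.755, 0.729 and 0.741% in OPT. Of the 33 members, 12 were highest in NC replicate 2 and 16 in NC replicate 3, while 14 were lowest in OPT replicate 2 and 9 in NC replicate 1.

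The members' shift was close to that of all features in 4 of the 6 libraries. The median member deviated from its own 6-library mean by -0.02, 0.09 and 0.08 on the log2 scale in NC replicates 1, 2 and 3 and by -0.03, -0.06 and -0.03 in OPT. The median of all tested features deviated by 0.03, 0.08 and -0.01 in NC and by -0.02, -0.04 and -0.02 in OPT. The members stood above that overall shift in NC replicate 3 and below it in NC replicate 1. Without NC replicate 3 no member was called and the median was -0.07. Across the 6 libraries the highest value of a member exceeded its lowest by a median factor of 1.15, and by at most 1.37 (RPN13), against a median factor of 1.32 for all features. Features at a level like that of the members were not compared apart. A further pattern was that the more abundant members tended to have the more negative log2 fold changes (Spearman -0.426 over 33 genes in the same libraries, against -0.0687 over all features).

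**Figure D4:**
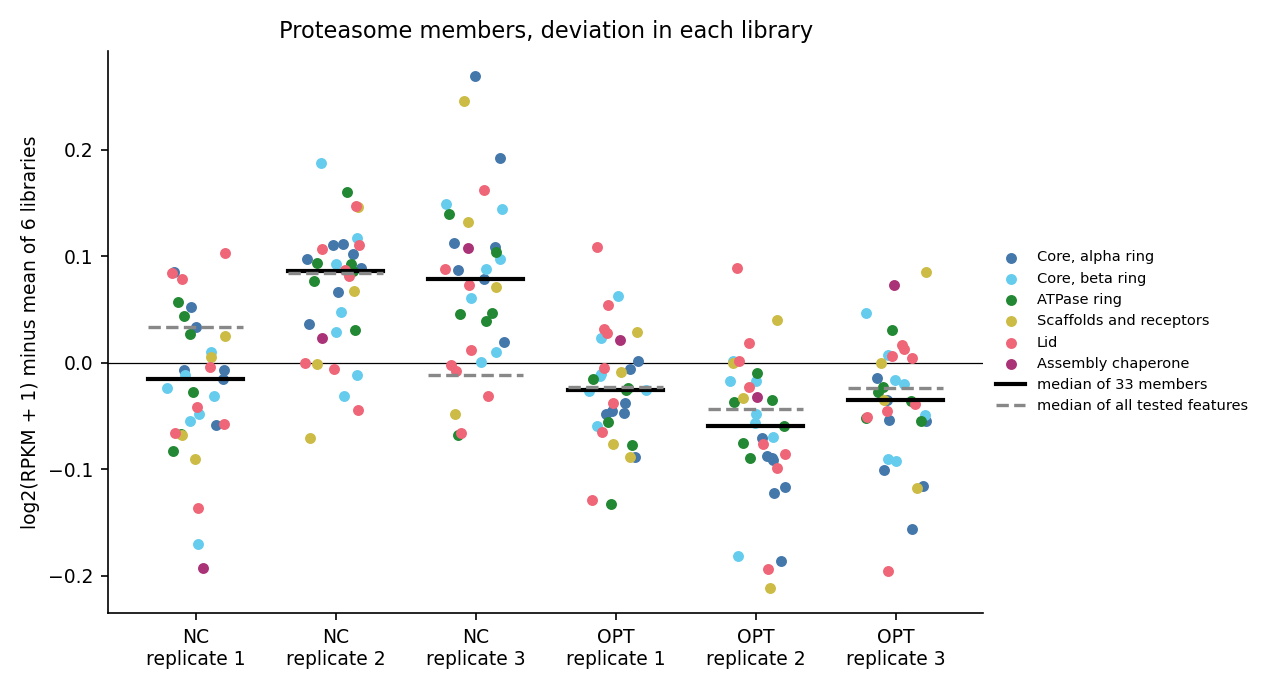
Deviation of each of the 33 members from its own mean over the 6 libraries, in log2(RPKM + 1), coloured by role, with the median of the members as a solid line and that of all tested features as a dashed line. The members lie highest in NC replicates 2 and 3, and NC replicate 1 lies near the OPT libraries.

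The proteins that build, accompany and feed the proteasome gave few calls as well. In 7 lists with 63 genes, 3 genes were called lower in OPT and 1 higher, which is 4 of 63 beside the background of 19.1%. Of the 8 assembly chaperones for the core and the base, 1 fell and none rose, beside 13.8% of all features called lower. All 8 log2 fold changes were below 0, with a median of -0.10, where 61.7% of all features were below 0. RPN14, the assembly chaperone counted among the 33 members, is not in this list and lay at 0.04. The gene that fell was ADD66, whose product helps to assemble the alpha ring. It stood at 84.8, 86.7 and 107 RPKM in NC and 70.1, 64.3 and 59.7 RPKM in OPT, well apart. From 92.9 ± 12.5 RPKM it fell to 64.7 ± 5.19 RPKM, a difference well beyond the spread within strains (log2 fold change -0.51, SE 0.11, adjusted p = 0.022 in limma). That exceeded the change of any proteasome gene in size, and it held without NC replicate 3 (-0.40, adjusted p = 0.0137). The call ended with equal library medians (0.0561) and without OPT replicate 1, 2 or 3 (0.0514, 0.0873 and 0.0809). UMP1, which is needed for the maturation of the active sites, stood at 235, 244 and 258 RPKM in NC and 253, 228 and 248 RPKM in OPT.

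Among 7 proteins that bind the proteasome, 1 rose and none fell, beside 5.38% of all features called higher and 13.8% called lower. All 7 log2 fold changes were above 0, with a median of 0.13, where 61.7% of all features were below 0 with a median of -0.06. That holds for the list as drawn, which leaves out the shuttle factors. RAD23, DSK2 and DDI1, placed in another list, lay at -0.13, 0.01 and 0.02. STS1, which helps to place proteasomes in the nucleus, rose from 75.4 ± 3.34 to 88.1 ± 1.65 RPKM (adjusted p = 0.0449 in limma, log2 fold change 0.22, SE 0.06). Its libraries read 77.0, 77.6 and 71.5 RPKM in NC and 86.4, 88.3 and 89.7 RPKM in OPT, without overlap. The call ended with a common prior variance (0.0522) and without NC replicate 1 or 2 (0.0663 and 0.0708) or OPT replicate 1, 2 or 3 (0.111, 0.159 and 0.152). FUB1, of the same list, stood at 80.1 ± 5.13 and 94.7 ± 3.72 RPKM and did not pass (adjusted p = 0.0567).

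Of 11 ubiquitin-conjugating enzymes 2 fell and none rose, a share near the 13.8% of all features called lower. UBC13, which makes chains that serve DNA damage tolerance, fell from 270 ± 20.5 to 214 ± 12.6 RPKM (adjusted p = 0.0336 in limma, log2 fold change -0.34). UBC11, at a far lower level, fell from 33.3 ± 3.11 to 25.7 ± 1.33 RPKM (adjusted p = 0.0299, log2 fold change -0.36). Both calls ended without NC replicate 2 (adjusted p = 0.0617 and 0.0825) and without OPT replicate 1, 2 or 3 (up to 0.136 and 0.12). That of UBC11 also ended without NC replicate 1 (0.0709), and that of UBC13 also with quantile normalization (0.0511) and equal library medians (0.0969). UBC4, the most abundant of this list and a main enzyme for the turnover of short-lived and abnormal proteins, stood at 947 ± 107 and 763 ± 35.9 RPKM and did not pass (adjusted p = 0.075). UBC7, which acts at the ER membrane, lay at -0.36 with a wider error (adjusted p = 0.0883). Of the 11 genes, 7 lay below 0 and 4 above, where 61.7% of all features were below 0. UBC8 had the highest log2 fold change, 0.31, and did not pass (adjusted p = 0.123 in limma).

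The other 4 lists gave no call in either direction, though each gained a call under some of the alternative settings. The genes that encode ubiquitin itself stood among the most abundant here, with UBI4, the polyubiquitin gene, at 1098, 1275 and 1362 RPKM in NC and 1279, 1262 and 1480 RPKM in OPT. RPS31, a fusion of ubiquitin with a ribosomal protein, stood at 3140 ± 413 and 3512 ± 178 RPKM. RPL40A and RPL40B, 2 copies that encode the same fusion, cannot be told apart with certainty. RPL40A stood at 1122 ± 130 and 1313 ± 22.3 RPKM, and RPL40B at 886 ± 113 and 1045 ± 15.3 RPKM. Both were higher in OPT without overlap, as were 13.1% of all features, and neither passed (adjusted p = 0.15 and 0.143 in limma). Of this list, 4 of 5 genes were above 0 with a median of 0.17, where 61.7% of all features were below 0. Among 9 shuttle factors and parts of the Cdc48 segregase, the median was -0.0016, with CDC48 at 335 ± 25.7 and 335 ± 21.1 RPKM. The list of 17 deubiquitinases, which leaves out those placed in other lists, had a median of -0.01. The most abundant of that list, YUH1 and UBP1, lay at -0.18 and -0.03. Among 6 genes that act on Rpn4, 5 were above 0 with a median of 0.15, where 61.7% of all features were below 0. This list was not split into genes that raise and genes that lower Rpn4, so its median gives no direction for Rpn4 activity. YAP1, an activator of RPN4, stood at 83.8 ± 9.13 and 95.6 ± 3.43 RPKM (adjusted p = 0.184). HSF1, another activator, stood at 63.6 ± 1.17 and 61.0 ± 2.24 RPKM (adjusted p = 0.491). UBR2 had the largest change of this list, from 5.59 ± 0.74 to 7.39 ± 0.28 RPKM (log2 fold change 0.35, adjusted p = 0.0687 in limma). MUB1 lay at 0.17 (adjusted p = 0.15). YAP1, UBR2 and MUB1 were higher in OPT without overlap, as were 13.1% of all features.

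**Figure D5:**
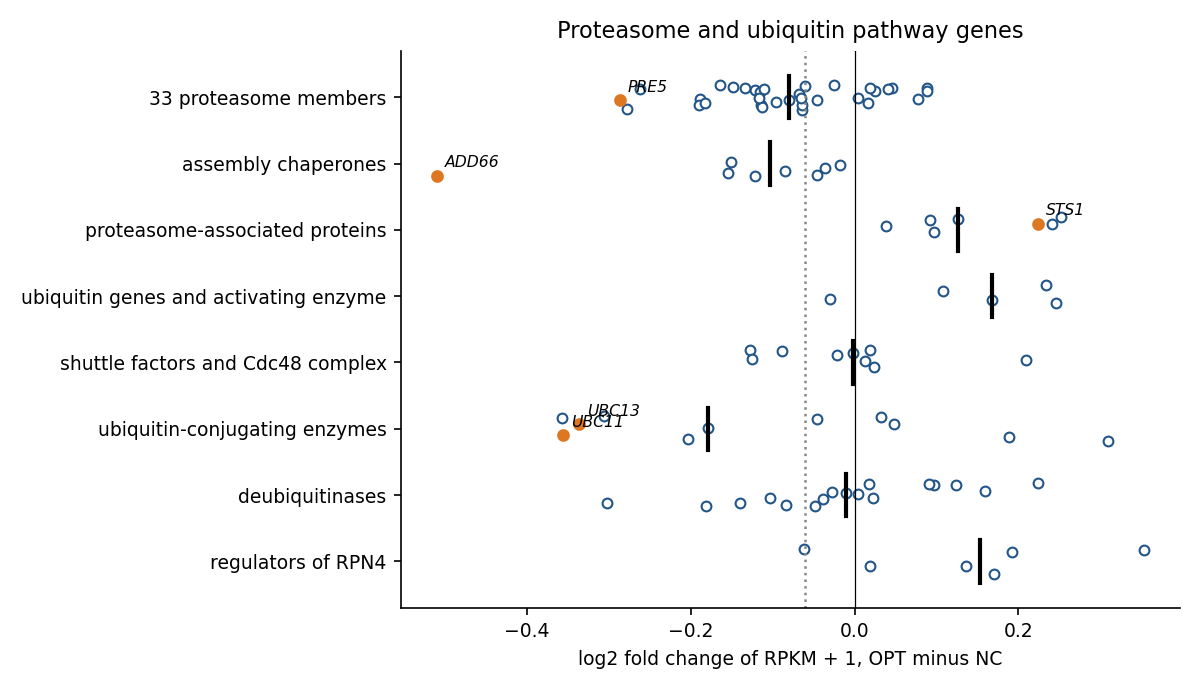
Log2 fold change, OPT minus NC, of each gene in the proteasome set and in 7 lists of the ubiquitin pathway, with filled points where the limma adjusted p is under 0.05, a bar at each median and a dotted line at the median of all tested features. ADD66 lies furthest from 0 at -0.51, and 4 of the 63 list genes are filled.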

How the data were processed

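The authors deposited normalized RPKM per feature and library, per the file headers, and the submitters' processing notes list Bowtie, TopHat, CASAVA 1.8.0 and build R64. For counting rules, use of strand and normalization, details were not given in the sources used here. Libraries add up to 999285 to 999421 RPKM, nearly the same sum in each, which scaling by gene length and library size alone does not ensure. Replicate numbers follow accession order, and the labels do not say whether cultures were separate, so p-values measure the spread between these libraries. Depth was estimated from low values: in genes of up to 400 bases, RPKM times length, up to 20 reads, gave whole multiples of 1 step per library within 0.15 of a read for 100% of 77 to 100 values. No count test was run.

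Left out were 3 emptied lines and 1 repeated row. The test was limma 3.58.1 (R 4.3.3) on log2(RPKM + 1), two-sided, with a variance trend and without covariates. It took all features averaging 1 RPKM or more, with Benjamini-Hochberg adjustment over all of them and calls at 0.05. All 33 members and RPN4 passed the filter. Rows of cdt-1 were fitted but not counted. The pipeline was tested on simulated data. Gene spans are those of RefSeq, build R64, introns included. Tables and figures used Python 3.11.15, numpy 2.4.6, pandas 2.3.3, scipy 1.17.1 and matplotlib 3.10.9.

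Named were every member, RPN4, and from each list the called genes or, with none, the 2 most abundant. FUB1, UBC4, UBC7, UBC8, UMP1, RAD23, DSK2, DDI1, RPL40A, RPL40B, UBR2 and MUB1 were added after their values were seen. Members and lists were chosen with earlier results of these data known. Alternatives were a pseudocount of 0.1, other filters, other scalings, other variance models, protein-coding genes only and leaving out each library.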

Additional observations from a re-analysis of the deposited data

How the results depend on the processing

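The count of members called lower, 1 as reported, was 4 without a filter (PRE5, PRE9, RPN7 and RPT5), 3 with arrayWeights (PRE5, RPN7 and RPN13), 0 with quantile normalization or equal library medians, and 0 to 2 when 1 library was left out. No member was called higher under any of the 14 alternatives. The members' median of -0.08 became -0.0096 with quantile normalization and -0.019 with equal library medians, and moved by less than the spread between replicates otherwise. Calls among the 63 list genes, 3 lower and 1 higher as reported, were 1 and 5 with equal library medians, 5 and 3 with arrayWeights, 3 and 3 with quantile normalization, 4 and 2 without a filter, and 0 to 5 and 0 to 2 when 1 library was left out. Some log2 fold changes changed sign without passing the test, most of them close to 0 as reported but RPS31 from 0.17. With quantile normalization these were PRE4 (0.021), PUP1 (0.033), RPN5 (0.0024), RPN12 (0.054), RPT2 (0.018), CDC48 (0.056), SHP1 (0.0055), UBP1 (0.031) and RPS31 (-0.032). With equal library medians they were PUP1 (0.014), RPN12 (0.035), CDC48 (0.059) and UBP1 (0.033), and with arrayWeights CDC48 (0.010). Leaving out 1 library gave -0.054 to 0.10 for PRE2, -0.011 to 0.051 for PRE3, -0.082 to 0.00059 for PUP1, -0.021 to 0.090 for RPN10, -0.052 to 0.0091 for RPN12, -0.045 to 0.11 for RPN14, -0.011 to 0.094 for RPN6, -0.036 to 0.028 for RPT3, -0.062 to 0.048 for CDC48 and -0.16 to 0.039 for UBP1. The cause of these changes was not tested. The planned search of promoters for the Rpn4 site and its alternatives was not run. No paired analysis was possible because the labels give no replicate numbers.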
